A study of Homo sapiens with 6 samples.

Results

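The genes of 2 families of splicing proteins were examined for R-loop peaks: the SR proteins, with symbols SRSF plus a number, and the heterogeneous nuclear ribonucleoproteins (hnRNPs), with symbols starting HNRNP. Members were chosen by symbol alone among the 19821 protein-coding genes of the RefSeq table for GRCh38, which gave 12 SRSF and 26 HNRNP genes, 38 in all. The cells were IMR90, a wild-type human line of embryonic lung fibroblasts grown at 2% oxygen. They were senescent after ectopic expression of Ras, quiescent after starvation, or proliferating with a control vector. The assay was MapR, a relative of CUT&RUN. An RNase H carries micrococcal nuclease (RH-MNase) to RNA-DNA hybrids, where the nuclease releases the chromatin, and GST-MNase serves as background. Each state had 1 RH-MNase peak list from 1 library, and the 3 libraries made with GST-MNase were not used. Without replicates, all differences are between single libraries, and no test was possible. How Ras was delivered is not stated in the labels used here.

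SR proteins bind exonic sequences through RNA recognition motifs and recruit the spliceosome through domains rich in arginine and serine. hnRNPs coat nascent transcripts, often oppose exon inclusion, and act in RNA export, stability and translation. Both groups package nascent RNA and so bear on whether it can pair again with its template, and depletion of SRSF1 is known to raise R-loops in chicken cells. Many of these genes control their own level through unproductive splicing, and their transcripts are among the abundant ones of dividing cells.

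The senescent list held 85564 peaks over 54.1 Mb, the quiescent list 9736 over 4.12 Mb and the proliferating list 101802 over 85.4 Mb. Their median widths were 468, 352 and 550 bp. Read depth is unknown, so lists of such unequal length do not allow levels to be compared directly. The score of a peak is the authors' own value and served only to rank peaks within a list. Each list pools many cells, so a hybrid in fewer cells and less hybrid per cell cannot be told apart. Of 8 fibroblast genes 6 had a senescent, 3 a quiescent and 8 a proliferating peak, against 6, 1 and 6 of 8 genes of other cell types; a peak is no measure of expression, so this does not check the cell type.

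For 34 members the RefSeq promoter table (GRCh38.p14) gives strand and annotated starts; SRSF2, HNRNPA1, HNRNPA1L3 and HNRNPCL3 had no entry and are described by coordinate. The 300 bases from 250 before to 50 after the outermost start are printed for 5 members. They were chosen to show windows with none, some or all of their bases under a senescent peak. All 300 bases of each lay under a proliferating peak, and capitals mark the bases that also lay under a senescent peak. The windows are those of SRSF5 (chr14:69766892-69767191, plus strand), HNRNPU (chr1:244864494-244864793, minus strand), SRSF3 (chr6:36594112-36594411, plus strand), HNRNPA3 (chr2:177212544-177212843, plus strand) and SRSF6 (chr20:43457646-43457945, plus strand).
SRSF5: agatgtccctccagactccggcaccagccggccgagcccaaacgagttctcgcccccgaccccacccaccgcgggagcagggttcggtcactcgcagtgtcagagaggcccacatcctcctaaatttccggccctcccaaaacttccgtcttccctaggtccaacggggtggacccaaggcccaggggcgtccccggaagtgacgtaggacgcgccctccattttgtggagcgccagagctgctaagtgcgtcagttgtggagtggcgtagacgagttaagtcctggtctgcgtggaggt
HNRNPU: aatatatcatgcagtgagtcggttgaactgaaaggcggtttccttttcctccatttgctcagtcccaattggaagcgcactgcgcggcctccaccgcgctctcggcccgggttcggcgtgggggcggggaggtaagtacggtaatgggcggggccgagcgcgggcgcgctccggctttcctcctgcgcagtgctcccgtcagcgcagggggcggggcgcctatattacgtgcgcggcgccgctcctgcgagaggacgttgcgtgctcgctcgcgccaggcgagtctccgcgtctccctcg
SRSF3: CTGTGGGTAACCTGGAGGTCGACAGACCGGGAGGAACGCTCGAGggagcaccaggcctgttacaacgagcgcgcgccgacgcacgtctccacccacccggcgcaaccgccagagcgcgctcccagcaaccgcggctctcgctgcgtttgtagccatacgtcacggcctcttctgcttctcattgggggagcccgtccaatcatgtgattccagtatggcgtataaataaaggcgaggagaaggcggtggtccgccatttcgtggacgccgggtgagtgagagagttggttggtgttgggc
HNRNPA3: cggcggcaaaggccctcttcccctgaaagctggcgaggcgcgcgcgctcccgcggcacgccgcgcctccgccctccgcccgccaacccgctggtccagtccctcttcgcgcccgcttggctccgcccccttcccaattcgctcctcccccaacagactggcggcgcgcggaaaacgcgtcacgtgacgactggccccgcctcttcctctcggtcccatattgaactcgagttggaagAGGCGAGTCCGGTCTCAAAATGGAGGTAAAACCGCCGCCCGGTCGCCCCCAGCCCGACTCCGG
SRSF6: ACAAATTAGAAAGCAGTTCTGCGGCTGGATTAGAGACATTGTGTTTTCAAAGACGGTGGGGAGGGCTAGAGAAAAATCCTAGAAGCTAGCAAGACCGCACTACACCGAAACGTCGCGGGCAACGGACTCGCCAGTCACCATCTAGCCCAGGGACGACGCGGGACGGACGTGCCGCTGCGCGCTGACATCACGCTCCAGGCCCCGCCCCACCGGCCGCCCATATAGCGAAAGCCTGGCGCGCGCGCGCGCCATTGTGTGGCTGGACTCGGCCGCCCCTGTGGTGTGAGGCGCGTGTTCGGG
SRSF5 and HNRNPU had no base under a senescent peak, SRSF3 had the first 44, HNRNPA3 the last 63 and SRSF6 all 300. HNRNPA3 had a further senescent peak from -767 to -380 bp, which ended before the printed window. In SRSF6 a quiescent peak also covered the first 74 bases. GC content was lowest in the SRSF3 window, at 62.3%, and highest in that of HNRNPA3, at 70.0%.

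A gene end here is the stretch within 1000 bp of either annotated end of a gene. A gene-end peak was present in 31 of 38 members in senescent cells (81.6%, 95% Wilson interval 66.6 to 90.8), in 8 in quiescent cells (21.1%, 11.1 to 36.3) and in 33 in proliferating cells (86.8%, 72.7 to 94.2). Over all protein-coding genes the shares were 70.3%, 27.7% and 75.9%, so the members lay near the background in each list. Among SRSF genes 11, 4 and 12 of 12 had such a peak in senescent, quiescent and proliferating cells, and among HNRNP genes 20, 4 and 21 of 26. All 8 members with a quiescent gene-end peak had one in all 3 lists (21.1%), against 27.4% of all genes. They were SRSF1, SRSF4, SRSF6, SRSF9, HNRNPA2B1, HNRNPD, HNRNPR and HNRNPUL1, while SRSF11 and HNRNPAB had a quiescent peak elsewhere in the locus. Intervals cover counting error only.

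The members without any peak in the 3 lists were HNRNPA1L3, HNRNPCL1, HNRNPCL2, HNRNPCL3 and HNRNPCL4. HNRNPCL1 to HNRNPCL4 are near copies of HNRNPC clustered on chromosome 1, and HNRNPA1L3 is a copy of HNRNPA1. The sources used here do not say how reads mapping to several copies were treated, so an empty locus in these genes is uncertain. Leaving them aside, each of the 33 remaining members had a peak in the proliferating list. Of 17003 protein-coding genes with a senescent or proliferating peak, 16535 had a proliferating one, so this lies near the background.

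Cover of a locus, the percent of its bases under peaks with 1000 bp added on each side of the gene, was lower in senescent than in proliferating cells in 33 of the 33 members with a peak. Over all genes with a peak in either list it was lower in 84.5%. At least 2-fold lower cover, loss of all peaks included, was found in 20 of the 33 members, against 35.8% of those genes. None was higher in senescent cells, against 15.4%, and none at least 2-fold higher, against 5.08%. The mean over the 38 members was 7.81% in senescent cells (SD 7.08 across genes), 0.696% in quiescent cells (SD 1.41) and 19.4% in proliferating cells (SD 14.3). Over all protein-coding genes it was 8.04%, 0.985% and 12.7%. The median over genes of the ratio of senescent to proliferating cover was 0.41 in the 33 members and 0.60 in the 16535 genes with a proliferating peak.

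These values depended on how the lists were set against each other. When the proliferating list was cut by score until both lists covered equal lengths, the median was 0.55 in members and 0.76 over all genes, and 13 members were at least 2-fold lower, against 19.7% of all genes with a peak. Without peaks wider than 2000 bp, a gene-end peak remained in 31 members in senescent and 20 in proliferating cells, and cover was lower in senescent cells in 20 members and higher in 12. Over all genes with a peak it was then lower in 62.8% and higher in 37.2%. At least 2-fold lower cover was found in 9 members, against 27.9% of those genes. Both the members' direction count and their 2-fold count thus lay near the background. The median ratio at this setting was 0.56 in members and 0.71 over all genes.

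**Figure D1:**
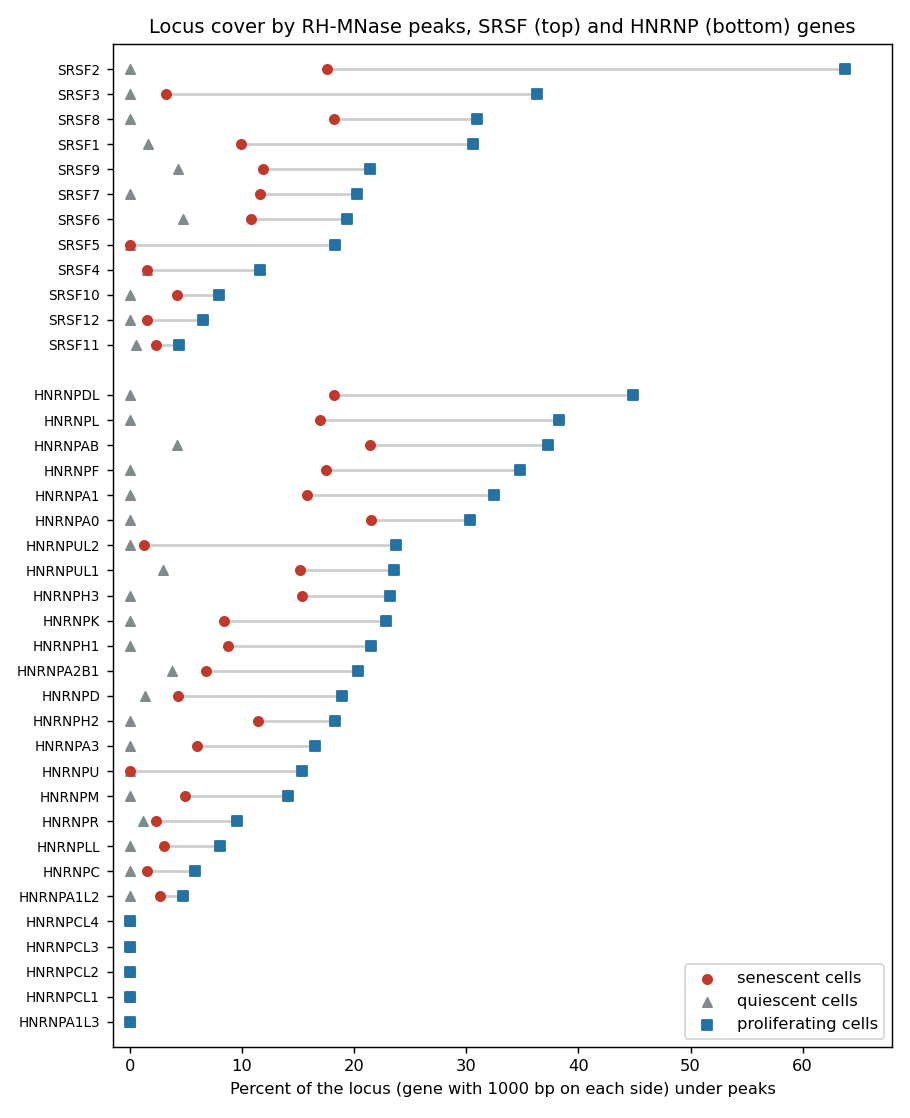
Percent of each locus under peaks (x axis) for the 12 SRSF genes (top) and 26 HNRNP genes (bottom), sorted by proliferating cover; red circles are senescent, grey triangles quiescent and blue squares proliferating cells, 1 library each, with a grey line from the senescent to the proliferating value. The senescent point lies left of the proliferating one in 33 genes, and the 5 lowest rows have every point at 0, where the squares hide the other symbols.

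Among SR protein genes the widest gap was at SRSF2 (chromosome 17, 76734115 to 76737411), which encodes SC35, a factor of splicing speckles. Its locus was 17.6% covered in senescent, 0% in quiescent and 63.8% in proliferating cells. The proliferating peak was 3925 bp wide and ran over the upper end of the gene; 2 senescent peaks of 239 and 717 bp lay inside that span. The gene MFSD11 begins within SRSF2 at 76736634, so the signal cannot be assigned to 1 of the pair.

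SRSF3, the smallest of the classical SR proteins, had 3.23% of its locus covered in senescent and 36.3% in proliferating cells. Proliferating cells had 5 peaks along the gene, among them one from 1126 to 3655 bp after the start. Senescent cells kept a single peak from -634 to -207 bp, all of it before the start. Its senescent gene-end score of 16 stood at percentile 9.80 of genes with such a peak, level with SRSF8, HNRNPA2B1 and HNRNPLL.

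SRSF1, the founding member of the family and a regulator of splice site choice, had 9.96% of its locus covered in senescent, 1.65% in quiescent and 30.6% in proliferating cells. The start peak ran from -307 to 633 bp in senescent and from -930 to 959 bp in proliferating cells. Of 5 further proliferating peaks inside the gene none had a senescent partner. A peak near the far end was present in all 3 lists, with scores of 29, 44 and 50 that rank only within their own lists. The start of VEZF1 lies 784 bp beyond that end. SRSF1 therefore had no quiescent peak at its own start.

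SRSF5, a classical SR protein, had 0% of its locus covered in senescent cells and 18.3% in proliferating cells, as a single peak from -310 to 944 bp with score 47. The lncRNA gene LOC100289511 overlaps that start. SRSF4 had 1.58% in senescent, 1.58% in quiescent and 11.7% in proliferating cells; its senescent and quiescent peaks were both 573 bp wide, with starts at 105 and 26 bp. SRSF6 had 10.8%, 4.80% and 19.3% in senescent, quiescent and proliferating cells, and its senescent start peak, with score 44, stood at percentile 95.4 of gene-end scores in that list. This was the highest senescent gene-end score among members.

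SRSF9 had 11.9% in senescent, 4.29% in quiescent and 21.4% in proliferating cells, with the start of DYNLL1 94 bp before its own. SRSF7, an SR protein with a zinc knuckle, had 11.6% in senescent, 0% in quiescent and 20.3% in proliferating cells. SRSF8, a relative of SRSF2, had 18.2%, 0% and 31.0%, and its only senescent peak began 661 bp after the start. The smallest differences in the family were those of SRSF11, with 2.36% in senescent, 0.54% in quiescent and 4.44% in proliferating cells, and of SRSF10, with 4.19%, 0% and 7.96%. SRSF12 had 1.54%, 0% and 6.58%.

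In the hnRNP family the only member to lose its gene-end peak in senescent cells was HNRNPU, which encodes SAF-A, a scaffold attachment factor of the nucleus. It had 0% of its locus covered in senescent and in quiescent cells and 15.3% in proliferating cells, as 1 peak from -843 to 1648 bp. The protein-coding entry LOC124904588 has an end 61 bp from the HNRNPU start. Together with SRSF5 this made 2 of 38 members with a gene-end peak in proliferating cells alone, against 8.12% of all protein-coding genes, and none had one in senescent cells alone, against 2.49%.

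HNRNPUL2, a relative of HNRNPU, had 1.28% in senescent, 0% in quiescent and 23.8% in proliferating cells. Its senescent peak lay from -1838 to -786 bp, outside the start itself, and the start of TTC9C lies 592 bp before that of HNRNPUL2. HNRNPUL1, the third gene of this type, had 15.2%, 2.97% and 23.6%. Its proliferating start peak was 6632 bp wide and spanned all 3 annotated starts. The senescent signal was split around the outermost start, into peaks from -1233 to -230 and from 1034 to 4044 bp, and of the quiescent peaks from 1680 to 2381 and from 2861 to 3372 bp the first lay over an inner start.

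The A and B type hnRNPs include the most abundant ones, and each of them with a peak had less cover in senescent than in proliferating cells. HNRNPA1 (chromosome 12, 54280726 to 54287087) had 15.8% in senescent, 0% in quiescent and 32.5% in proliferating cells. A proliferating peak from 54278984 to 54281612 reached across the start of CBX5 at 54280122, and 2 senescent peaks of 804 and 480 bp lay within it. HNRNPA2B1, which also reads modified RNA, had 6.79%, 3.78% and 20.4%. Its proliferating peak, from -2437 to 1282 bp, also covered the start of CBX3 697 bp upstream, and quiescent cells had separate peaks from -541 to -286 and from 250 to 478 bp.

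HNRNPA0 had 21.5% in senescent, 0% in quiescent and 30.3% in proliferating cells. There 1 proliferating peak from -995 to 2253 bp stood against senescent peaks from -830 to 580 and from 983 to 1365 bp, with a further senescent peak near the far end. HNRNPA3 had 6.0%, 0% and 16.5%, and HNRNPAB 21.4%, 4.26% and 37.3%. HNRNPA1L2, a copy of HNRNPA1 with a peak at its own start, had 2.67%, 0% and 4.75%, among the smallest differences of all members.

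HNRNPD, known as AUF1 for its binding to AU-rich elements of unstable mRNAs, had 4.34% in senescent, 1.34% in quiescent and 19.0% in proliferating cells. HNRNPDL, its relative, had 18.2%, 0% and 44.9%, the third largest gap of all members. ENOPH1 starts 128 bp before HNRNPDL and shares its start peak. HNRNPC, a core hnRNP of nascent transcripts, had 1.54%, 0% and 5.86%; of 6 proliferating peaks along its 60296 bp, those at the start and from 3574 to 3926 bp had a senescent partner. HNRNPK, a DNA- and RNA-binding hnRNP, had 8.44%, 0% and 22.8%, with the start of RMI1 256 bp inside the gene on the other strand.

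HNRNPF and HNRNPH1, which bind G-rich RNA, had peaks at more than 1 annotated start. In HNRNPF, with 17.5% in senescent, 0% in quiescent and 34.8% in proliferating cells, the highest peak of any member in the proliferating list (score 65) lay from 11504 to 13597 bp, at an inner start. Senescent cells had 2 peaks there, with scores of 23 and 30 that rank only within the senescent list. HNRNPH1 had 8.81%, 0% and 21.5%; at its inner starts the peak ran from 9521 to 11284 bp in senescent and from 9500 to 11645 bp in proliferating cells. HNRNPH2 had 11.5%, 0% and 18.4%, and HNRNPH3 15.3%, 0% and 23.3%.

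HNRNPL, a regulator bound to CA repeats, had 17.0% in senescent, 0% in quiescent and 38.3% in proliferating cells. Peaks lay on both sides of its outermost start in both lists. HNRNPLL, its paralog, had 3.10%, 0% and 8.03%, HNRNPM 4.92%, 0% and 14.1%, and HNRNPR 2.39%, 1.23% and 9.59%. The start peak of HNRNPR differed in width between the lists. It ran from -619 to 375 bp in senescent, from -623 to -112 bp in quiescent and from -1584 to 2987 bp in proliferating cells. Start peaks over all strand-known genes were also narrower in senescent than in proliferating cells, with medians of 791 and 1540 bp.

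**Figure D2:**
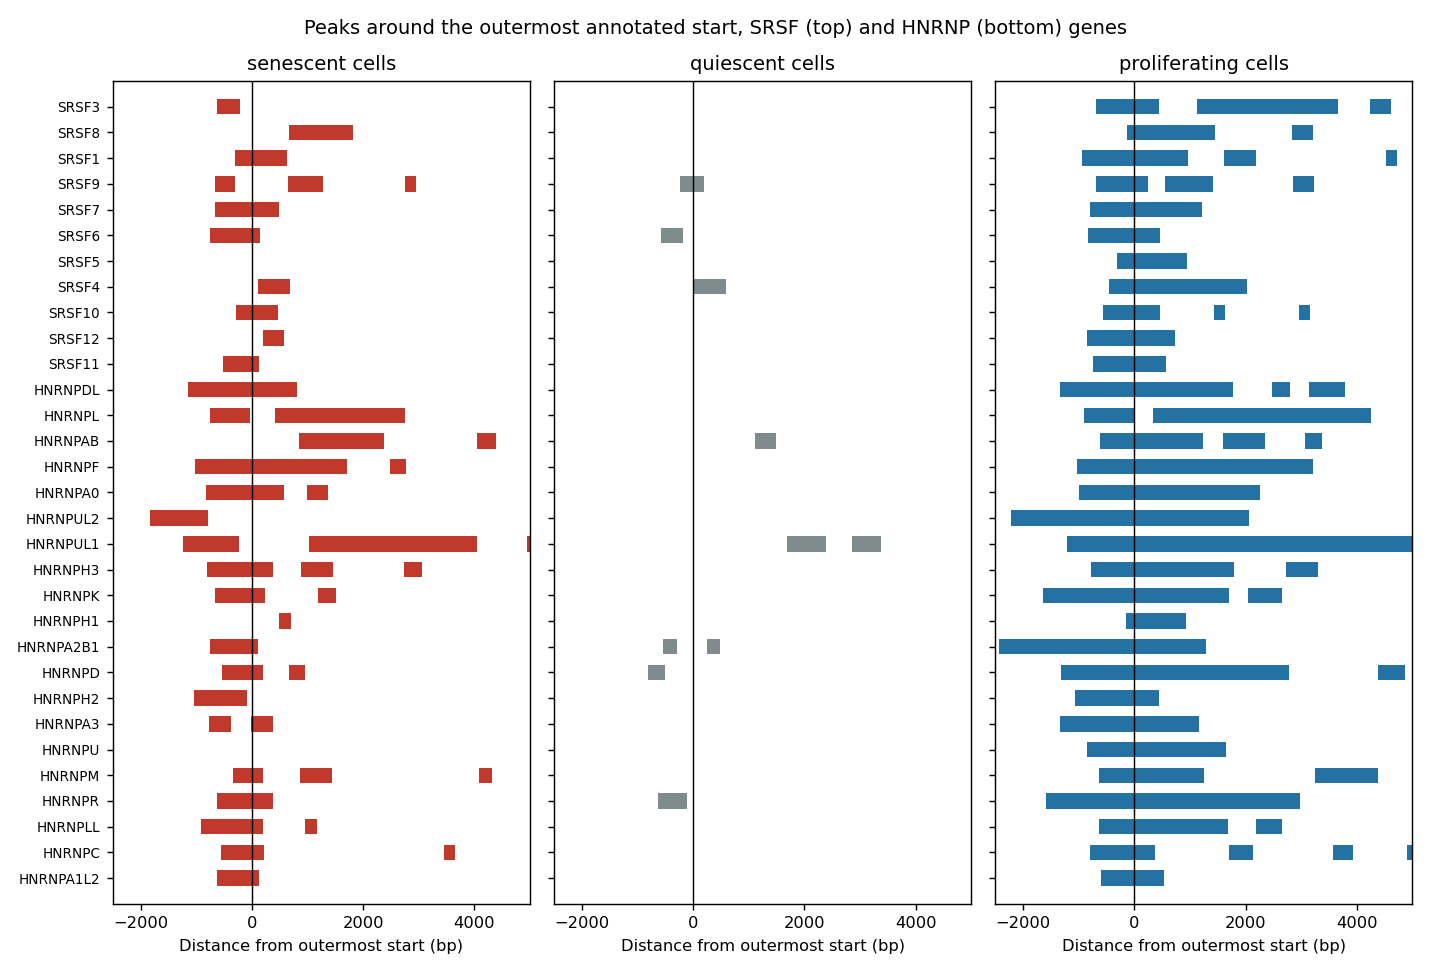
Peaks from 2500 bp before to 5000 bp after the outermost annotated start (x axis, bp, line at 0) of the 31 strand-known members with a peak, SRSF above HNRNP, in senescent (left), quiescent (middle) and proliferating cells (right); each bar spans 1 peak. Proliferating bars cross the start in 30 genes and senescent bars in 18.

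The position of peaks within the genes differed between the states. In the loci of strand-known members, 43 of 58 senescent peaks (74.1%), 10 of 13 quiescent peaks (76.9%) and 36 of 99 proliferating peaks (36.4%) touched the window around an annotated start. Peaks inside the gene numbered 10, 1 and 51, and peaks at the far end 5, 2 and 12. Over all strand-known protein-coding genes the start held 31.9%, 69.8% and 25.7% of peaks. Peaks inside the gene were 17.2%, 7.69% and 51.5% of those of members, against 60.5%, 24.5% and 66.8% over all genes. Peaks at the far end were 8.62%, 15.4% and 12.1%, against 7.62%, 5.71% and 7.47%. The members are shorter, with a median gene length of 11371.5 bp, against 24482 bp over all protein-coding genes. A shorter gene has less room for peaks inside it, and genes of like length were not compared. When each list was limited to peaks of at least its median score, the members' shares at the start were 78.4%, 66.7% and 59.0%.

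Of the 36 proliferating start peaks 34 overlapped a senescent peak, whereas of the 51 proliferating peaks inside member genes 9 did (17.6%). Over all strand-known genes the shares were 82.6% at starts and 41.8% inside. The members' proliferating start peaks had a median width of 1954.5 bp and a median score of 47, against 399 bp and 20 inside. Overlap needed only 1 bp, and whether width or score accounts for the contrast was not tested. In the other direction 60 of all 63 senescent peaks in member loci overlapped a proliferating peak, as did 13 of 13 quiescent ones. By position these were 43 of 43 senescent peaks at the start, 9 of 10 inside and 3 of 5 at the far end of strand-known members, against 94.7%, 61.8% and 74.3% over all strand-known genes. For quiescent peaks the shares over all genes were 100% at the start, 98.8% inside and 99.8% at the far end, so 13 of 13 is the background. The 3 senescent peaks without a proliferating partner lay near the far ends of HNRNPA0 and HNRNPF and inside HNRNPAB. The SRSF genes had 1 senescent peak inside a gene, in SRSF9, against 13 in proliferating cells, and the HNRNP genes had 9 against 38. Over all strand-known genes there were 28893 such peaks in senescent and 38647 in proliferating cells.

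Around the start, the senescent share of cover was lower on the side of the gene than before it. In the 31 members with known strand and over 3000 bp, the first 1000 bp of the gene were 31.9% covered in senescent, 3.24% in quiescent and 84.6% in proliferating cells. The 1000 bp before the start were 48.3%, 5.53% and 77.2% covered. The ratio of senescent to proliferating cover was thus 0.38 after and 0.63 before the start. Over 14399 protein-coding genes chosen the same way the ratios were 0.65 after and 0.60 before the start. In the 20 HNRNP genes they were 0.35 after and 0.69 before the start, and in the 11 SRSF genes 0.42 and 0.48, so the gap was mostly that of the HNRNP genes.

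With the proliferating list shortened to equal covered length, the ratios after and before the start were 0.39 and 0.65 in members and 0.70 and 0.65 over all genes. Without peaks wider than 2000 bp they were 0.79 and 1.34 in members and 1.03 and 0.999 over all genes, so that members' cover before the start was then higher in senescent than in proliferating cells. In 29 of the 31 members the first 1000 bp had less cover in senescent than in proliferating cells. Of the 14399 genes 8431 were lower there and 1165 higher, and a gene without cover in both lists counts as neither. All 31 members had proliferating cover there, against 74.0% of those genes. The length limit had left out HNRNPCL1, HNRNPCL2 and HNRNPCL4, strand-known members without a peak in any list. That all members had cover thus holds only after this limit. HNRNPF was fully covered in both lists, and SRSF10 had 46.8% in senescent and 46.1% in proliferating cells. In HNRNPUL1, HNRNPUL2 and HNRNPU it was 0% in senescent and 100% in proliferating cells. Before the start 26 members were lower, against 8529 of all genes lower and 1408 higher. Proliferating cover before the start was present in all 31 members, again after the length limit, and in 71.6% of the 14399 genes. HNRNPLL (91.2% and 63.7%), HNRNPA1L2 (63.2% and 59.5%) and HNRNPH3 (80.0% and 77.9%) were higher there in senescent than in proliferating cells.

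**Figure D3:**
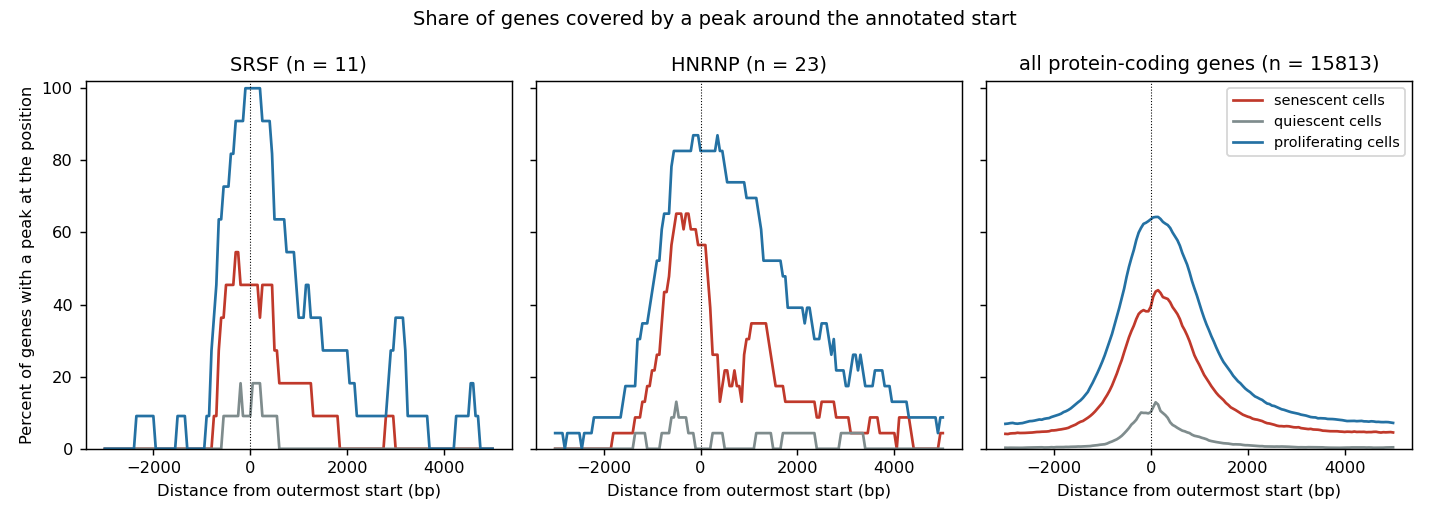
Percent of genes with a peak at each position (y axis) against the distance from the outermost annotated start (x axis, bp) for 11 SRSF genes, 23 HNRNP genes and 15813 protein-coding genes with known strand; red is senescent, grey quiescent and blue proliferating cells. The senescent curve is highest at -300 bp in SRSF genes (54.5%), at -500 bp in HNRNP genes (65.2%) and at 150 bp over all genes (44.0%).

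At the start itself, 45.5% of SRSF and 56.5% of HNRNP genes had a senescent peak, 9.09% and 0% a quiescent one, and 100% and 82.6% a proliferating one. Over all genes the shares there were 39.4%, 10.2% and 63.7%. At 1000 bp after the start the senescent shares were 18.2% and 30.4% and the proliferating shares 36.4% and 69.6%. Over all genes the shares at that distance were 23.3% and 40.4%. Of the 43 senescent start peaks of members 7 ended before the outermost start, against 1 of 36 proliferating ones. The same was not counted over all genes. Their senescent start peaks were also narrower, with a median of 791 bp against 1540 bp in proliferating cells, so this is not given as a trait of members.

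The 2 families differed in the width of their start peaks. In proliferating cells the median width was 1293 bp in SRSF genes (13 peaks) and 2515 bp in HNRNP genes (23 peaks), and 2 and 16 of these peaks were wider than 2000 bp. Over all strand-known genes the median was 1540 bp and 32.5% were wider. In senescent cells the medians were 641 bp (12 peaks) and 870 bp (31 peaks), against 791 bp over all genes, and in quiescent cells 416.5 and 413.5 bp. The SRSF values leave out SRSF2, whose proliferating peak was 3925 bp wide.

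Mean locus cover in SRSF and HNRNP genes was 7.75% and 7.84% in senescent cells, 1.07% and 0.523% in quiescent cells, and 22.6% and 17.9% in proliferating cells. The HNRNP means include the 5 genes without a peak; without them they were 9.71%, 0.647% and 22.1%. The ratio of senescent to proliferating means was 0.34 in SRSF and 0.44 in HNRNP genes, while the medians over genes were 0.43 and 0.41. The order of the families thus turned with the summary used, so no difference in cover between them is given. Median gene length was 9658 bp in SRSF and 12018.5 bp in HNRNP genes, against 24482 bp over all protein-coding genes, which raises the percent that a start peak covers.

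**Figure D4:**
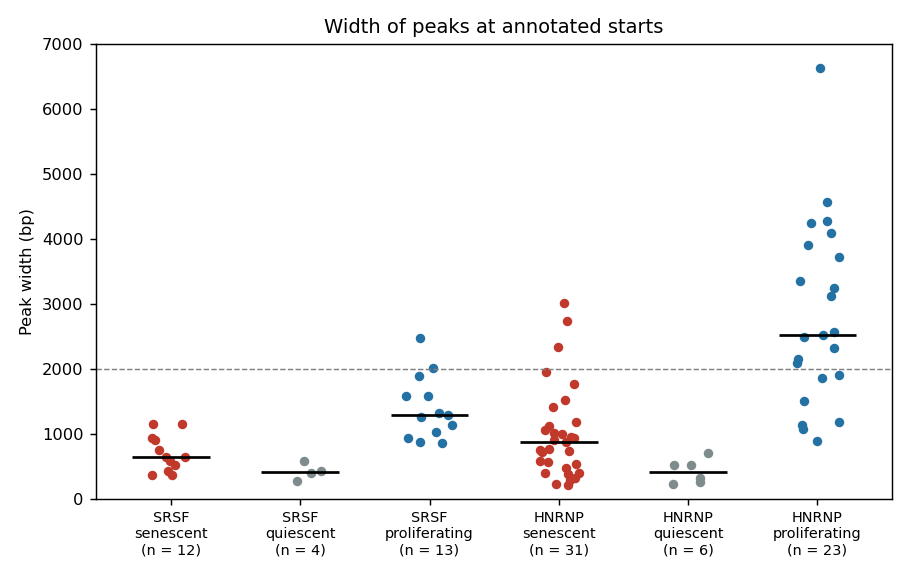
Width in bp (y axis) of each peak at an annotated start of an SRSF or HNRNP gene in senescent, quiescent and proliferating cells; each point is 1 peak, black bars are medians, and the dashed line marks 2000 bp. HNRNP peaks of proliferating cells lie highest, with a median of 2515 bp.

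The promoter windows of the families were rich in GC, with a median of 63.0% in 11 SRSF and 65.0% in 23 HNRNP genes, against 62.7% over 15812 protein-coding genes. CpG pairs numbered 30 and 29 in the median window, against 22. Motifs were searched on both strands. CCAAT, the box bound by NF-Y, was found in 2 of 11 SRSF and 16 of 23 HNRNP windows and in 36.4% of all windows. GGGCGG, the core of the GC box, was found in 4 and 16 windows and in 58.3% of all, and TATAAA in 1 and 3 and in 9.75%. CCGGAAG, a core bound by ETS factors, was found in 2 and 3 and in 14.1%, and GGGG in 10 and 21 and in 93.7%. GGGG and GGGCGG can overlap. Of the windows printed above, that of SRSF3 held TATAAA and CCAAT, that of SRSF5 CCGGAAG, those of HNRNPU and HNRNPA3 GGGCGG and CCAAT, and that of SRSF6 GGGCGG. Each of these windows also held GGGG. SRSF8 (36.0%) and HNRNPCL4 (40.3%) had the lowest GC content of the members.

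Other genes share many of these loci. Another protein-coding or lncRNA gene lay within 23 of the 38 loci, and 12 strand-known members had the end of another gene within 1000 bp of their start. Neither was counted over all protein-coding genes. In the 15 loci without another gene, 10 members had a gene-end peak in senescent and 10 in proliferating cells. All 10 were lower in senescent cells, 4 of them at least 2-fold, against 84.5% and 35.8% of all protein-coding genes with a peak. The other 5 are the loci without a peak in any list. The ratio of mean covers was 0.46 in these loci, against 0.63 over all protein-coding genes. The all-gene values include genes that share their locus.

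Other splicing genes were counted in lists, beside all protein-coding genes with a peak, of which 84.5% were lower and 35.8% at least 2-fold lower, with a median ratio of 0.60. Of 10 hnRNP proteins under other symbols, 10 had lower cover in senescent than in proliferating cells, 7 at least 2-fold, with a median ratio of 0.44. PCBP1 had 21.3% in senescent, 0% in quiescent and 82.3% in proliferating cells, and RALY 8.47%, 1.41% and 10.1%. Of 11 SR-related regulators and SR protein kinases, 11 were lower, 8 at least 2-fold, with a median ratio of 0.39. TRA2B, a splicing activator related to SR proteins, had 0% in senescent and 19.1% in proliferating cells. The kinase gene CLK1 had 3.98% and 23.3%.

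Of 28 genes of core spliceosome proteins, 28 were lower in senescent cells, 14 at least 2-fold, with a median ratio of 0.50. SNRPC, SNRPB, U2AF1 and PRPF3 had no senescent peak, against 6.39%, 13.7%, 4.44% and 3.74% of the locus in proliferating cells. Of 12 other splicing regulators 11 were lower, 9 at least 2-fold, with a median ratio of 0.38; NOVA2, a neuronal splicing factor, had 4.30% in senescent and 3.63% in proliferating cells.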

How the data were processed

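The deposited peak list of each RH-MNase library was used unchanged. MACS2 2.2.7.1, Bowtie2 2.4.5, FastQC 0.11.9 and build GRCh38 are named per the submitters' processing notes. Settings, and whether GST-MNase libraries served as control, were not given in the sources used here. Scores in the deposited lists are whole numbers, the lowest being 10, on a scale the authors do not state. Read depth is unknown.

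The RefSeq gene table (GRCh38.p14) holds 59792 entries, and 58419 were used. Rows out of coordinate order within a chromosome were taken as alternate or unplaced sequences and left out. Overlap meant at least 1 bp. Strand, starts and sequences came from the RefSeq promoter table. Values were computed with Python 3.11.15, numpy 2.4.6, pandas 2.3.3 and scipy 1.17.1, and the overlap code was tested on simulated data. Members, gene lists and comparisons were chosen with earlier results of these data known. All members could be named; the genes given in full were those with a gene-end peak in 1 of the senescent and proliferating lists, those with a quiescent peak, the 5 largest and 5 smallest changes, the highest scores and 9 named genes. Motifs and the genes printed as sequence were chosen after values were seen. Since each state has 1 library, no p-value was computed.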

Additional observations from a re-analysis of the deposited data

How the results depend on the processing

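Of 197 values under other settings, 133 stayed within 1.5 times the reported one (shares of peaks within its 95% interval), 63 did not and 1 reversed. The cause was not tested. Counts in the 15 loci without another gene are among the 197 and were set against counts over all 38 members. Such counts can leave the range through the smaller number of members alone. With gene-end windows of 500 or 3000 bp, or the peak midpoint at the gene end, every count stayed within 1.5 times. With equal numbers of peaks, 4 members had a senescent gene-end peak (2 SRSF, 2 HNRNP) and 10 a proliferating one (3 and 7). Mean cover was then 0.556% in senescent (SRSF 1.03%, HNRNP 0.336%) and 3.69% in proliferating cells (3.06% and 3.98%). Lower cover in senescent cells was found in 12 members, 11 at least 2-fold, and higher cover in 3. Members left without a peak in both lists count as neither. Of all genes still with a peak in either list, the shares were 73.3%, 52.3% and 26.7%. The ratio of means was 0.15 (HNRNP 0.084), and 0.21 before and 0.11 after the start. Without peaks wider than 2000 bp, which removes mostly proliferating peaks, 20 members (10 HNRNP) had a proliferating gene-end peak. Mean proliferating cover was then 8.57% (SRSF 12.6%, HNRNP 6.72%). Then 20 members were lower in senescent cells, 9 at least 2-fold, and 12 higher, against 62.8%, 27.9% and 37.2% of all genes with a peak. The ratio of means was 0.80 (SRSF 0.62, HNRNP 0.96), and 0.79 after the start; before the start it reversed to 1.34. The start then held 23.1% of proliferating peaks. With only peaks of at least the median score it held 59.0%; 5 members (2 SRSF) had a quiescent gene-end peak, mean quiescent cover was 0.220% (SRSF 0.269%, HNRNP 0.197%), mean SRSF senescent cover 4.19% and the SRSF ratio 0.20. At equal covered length 13 members were at least 2-fold lower and 1 was higher. Without flanks, quiescent cover was 0.397% (SRSF 0.395%). With flanks of 5000 bp, SRSF cover was 5.01% in senescent and 0.692% in quiescent cells, and 1 member was higher in senescent cells. In loci without another gene, added after the data had been seen, 10 members had a senescent gene-end peak (4 SRSF, 6 HNRNP). A quiescent one was present in 2 (1 and 1) and a proliferating one in 10 (4 and 6). Of these members 10 were lower in senescent cells, 4 at least 2-fold. Over all genes with a peak, shared loci included, 84.5% were lower and 35.8% at least 2-fold lower. HNRNP cover was 4.43% in senescent, 0.112% in quiescent and 8.49% in proliferating cells, and quiescent cover of all members 0.402%. Of these 11 HNRNP loci 5 are the copies without any peak; without them HNRNP cover was 8.13%, 0.205% and 15.6% in senescent, quiescent and proliferating cells. The ratios before and after the start under these settings were also added after the data had been seen. No paired analysis was possible because each state has 1 library. Read depth is unknown, which limits every comparison between lists.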

Other observations

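Pseudogenes with HNRNP or SRSF symbols, 142 in all and 75 of them copies of HNRNPA1, were looked at after the values of the members had been seen. A gene-end peak was present in 3 of them in senescent cells (2.11%), 0 in quiescent cells and 2 in proliferating cells (1.41%). Over all 16269 pseudogenes the shares were 9.12%, 1.22% and 11.3%. How reads shared by near-identical copies were treated was not tested.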
